A study of Mus musculus with 40 samples.

Results

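The genes described here are 7 members of the hepatic insulin signalling pathway: Insr, Irs1, Irs2, Pik3r1, Akt1, Akt2 and Foxo1. Their CpGs were taken as the cytosines of the bisulfite sequencing table that lay within 5 kb of the start of any annotated transcript of a member, and for Pik3r1 also those in the body of the gene (chr13:102450716-102538172 on mouse build mm9). The CpGs were then taken by position alone, while the genes were chosen with earlier results of these data known. It gave 206 of the 400298 listed cytosines, and 137 of these were among the 262317 that were tested because 36 or more of the 40 mice had 10 reads there. Of the listed cytosines, 9 of 24 could be tested at Insr, 17 of 20 at Irs1, 49 of 49 at Irs2, 35 of 57 at Pik3r1, 15 of 31 at Akt1, 1 of 1 at Akt2 and 11 of 24 at Foxo1.

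The DNA came from the livers of male C57BL/6 mice (C57BL/6J in the study's methods) killed at 9 weeks of age, with 10 animals in each of 4 groups. Dams ate a low fat (LF) or a high fat (HF) diet, and their sons were fed LF or HF after weaning, so that the groups are named by the dam's diet and then the son's own: LF/LF, LF/HF, HF/LF and HF/HF. Maternal diet was compared within each post-weaning diet, and post-weaning diet within each maternal diet. The study's methods divided brothers between the post-weaning diets, and the labels do not name litters, so the p-values treat each mouse as separate.

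Insulin binds its receptor on the hepatocyte surface, and the activated receptor phosphorylates the insulin receptor substrates. These recruit phosphatidylinositol 3-kinase through its regulatory subunit, the lipid product activates the AKT kinases, and AKT keeps the transcription factor FOXO1 out of the nucleus, which lowers glucose production and favours glycogen and lipid synthesis. Methylation of CpGs around a transcription start is typically low where a CpG island lies there, and in the bodies of genes it is typically high.

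Reduced representation bisulfite sequencing reads the ends of fragments that MspI makes by cutting at CCGG. All 137 tested cytosines lay within 50 bases of such a cut, which is the length of a read, so neighbouring values come from the same reads and are not separate samples of a gene. The following stretches are the first 50 bases after a cut, 5′ to 3′ on the strand named, from the reference of build mm9. Capitals mark the CpGs tested on that strand, or the C alone where the read ends on it, and the first of them is the cut itself. The first pair holds the Pik3r1 CpG with the smallest p-value of the members and the read that faces it, the next stretches come from the low CpGs at the starts of the receptor, its substrates and Foxo1, and the last, from Akt1, shows a methylated read for comparison.
Pik3r1, chr13:102537758-102537807, plus strand: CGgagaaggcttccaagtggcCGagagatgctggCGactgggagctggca
Pik3r1, chr13:102537805-102537854, minus strand: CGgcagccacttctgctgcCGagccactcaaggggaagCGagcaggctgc
Insr, chr8:3279050-3279099, plus strand: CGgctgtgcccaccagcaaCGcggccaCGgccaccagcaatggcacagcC
Irs1, chr1:82286954-82287003, plus strand: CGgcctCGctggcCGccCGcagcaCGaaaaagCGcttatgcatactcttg
Irs2, chr8:11008815-11008864, plus strand: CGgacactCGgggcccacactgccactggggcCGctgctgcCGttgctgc
Foxo1, chr3:52071937-52071986, plus strand: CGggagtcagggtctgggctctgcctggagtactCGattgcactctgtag
Akt1, chr12:113902079-113902128, plus strand: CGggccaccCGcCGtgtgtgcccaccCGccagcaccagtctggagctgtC

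The depth behind these values was low. Total counts over the listed CpGs were 2969907 to 23345592 in the 40 libraries, with a median of 13 to 59 reads at the member CpGs. Of the member values, 6.06% were missing for want of 10 reads. These were 11.9% in HF/HF and 0.0730% in HF/LF mice, and in 1 mouse 69 of the 137 member CpGs had no value. The median SD between mice of a group at a member CpG was 2.57 percentage points, and this was 1.07 times (median) the SD that sampling of the reads alone gives. Over the CpGs covered in all 40 mice, libraries of the same group differed by 1.21 to 3.95 times the variance that sampling of the reads gives over the 180 pairs of mice, which includes the spread between animals and was not tested pair by pair. The tissue could be checked only in part, because methylation is not expression and most marker genes fixed for the check had fewer than 5 tested CpGs near a start. Of the hepatocyte markers only Apoa2 had them, with a mean of 10.04%, and the leukocyte marker Itgam lay at 81.5%.

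The members fell into low and high regions. The insulin receptor gene Insr (minus strand, chr8:3150922-3279617) had the lowest level, with a mean of 1.09% over its 9 tested CpGs and none above 3.94%, 6 of them in coding sequence and 3 in the 5′ untranslated region. Irs1 (chr1:82229676-82287991, minus strand), which encodes the receptor substrate, had a mean of 2.10% over 17 CpGs, with 13 of them in the coding sequence and none above 6.73%. Foxo1 (chr3:52072259-52154031, plus strand) had a mean of 2.37% over 11 CpGs and none above 6.89%.

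Irs2 (chr8:10986980-11008458, minus strand), the other main substrate in liver, had the most tested CpGs. Of its 49, 42 had means below 10%, and 33 lay upstream of the start. The remaining 7 lay more than 2 kb inside the gene, in coding sequence and an intron, and reached 65.97%. Pik3r1 (minus strand), which encodes the p85α family of regulatory subunits of phosphatidylinositol 3-kinase, was below 10% at 32 of its 35 CpGs. Its 3 exceptions were the intronic CpGs at 102528189 and 102528227, with means of 29.03% and 27.5%, and that at 102476525, with 69.9%, which all lay in the gene body beyond 5 kb of a start.

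The kinase genes had other levels. Akt1 (chr12:113892032-113913095, minus strand) had a mean of 73.9% over 15 CpGs, 11 intronic and 4 upstream, and 12 of the 15 had means of 50% or more. Only 2 of its tested CpGs were below 10%, at 113912797 (3.55%) and 113917390 (3.45%). Akt2 (chr7:28376571-28425845, plus strand), the AKT isoform most tied to insulin action in liver, was represented by a single intronic CpG at 28387953, placed -2863 bp (upstream) from the nearest annotated start, with a mean of 20.2%. Over all members, the 47 CpGs within 1000 bp upstream of a start had means of 0 to 9.64% (median 0.794%), and the 40 within 1000 bp downstream had means of 0 to 6.73% (median 0.620%).

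**Figure D1:**
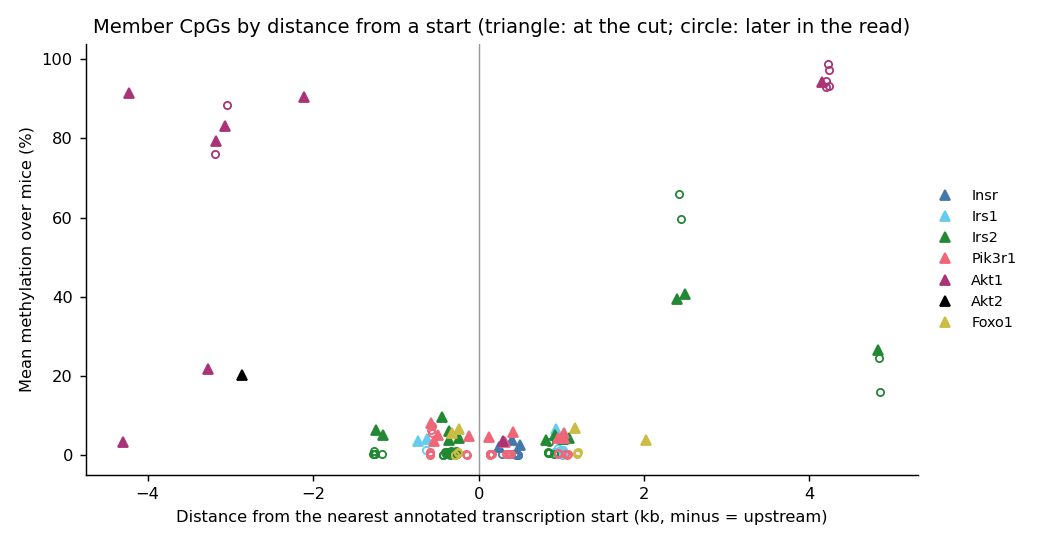
Mean methylation (%) over the mice of each tested member CpG against its distance in kb from the nearest annotated start, coloured by gene. Triangles are CpGs at the MspI cut and circles are CpGs later in a read; the 3 Pik3r1 gene body CpGs beyond 5 kb are not drawn. CpGs near a start sit below 10%, and those of Akt1 lie mostly above 75%, 2 kb or more from a start.

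Among low CpGs, the level differed with the place in the read. Over the member CpGs with means below 20%, the 34 at the cut had a median of 4.44% (range 1.99 to 9.64%), and the 80 later in a read had a median of 0.467% (0 to 16.0%). The median stayed between 0.335% and 0.592% in every further stretch of 10 bases. The first CpG was the highest in 26 of the 26 reads with at least 2 tested CpGs that were all below 20%. In the Pik3r1 stretch printed first, for example, the CpG at the cut had a mean of 5.91%, and the CpGs 21 and 34 bases later had 0.207% and 0.347%. In the Irs2 stretch the cut had 6.15% and the next CpG had 0.575%.

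The same difference was present in every mouse. The mean over the low CpGs at the cut exceeded that over the other low CpGs in 40 of 40 mice, by 1.98 to 5.81 percentage points (median 3.99). The levels at the cut overlapped between the groups. They were 4.75% ± 1.05 (SD, n = 10) in LF/LF, 4.72% ± 0.709 in LF/HF, 4.79% ± 0.422 in HF/LF and 5.20% ± 0.779 in HF/HF mice. At methylated CpGs the order was the other way, with a median of 90.9% at the 4 member CpGs at the cut with means of 80% or more and 93.9% at the 6 later in a read, all of them in Akt1, and over all tested CpGs of 80% or more the medians were 92.07% and 92.97%. The pattern was not particular to the members: over all tested CpGs below 20%, the median was 5.76% at 36541 cuts and 0.480% at 113063 other places. At the CCGG sites read from both strands, the cytosines of both strands were at the cut and both were raised, with 6.73% and 5.76% at Irs1 (82287054 and 82287055), 6.15% and 3.71% at Irs2 (11008815 and 11008816) and 5.67% and 4.43% at Pik3r1 (102537137 and 102537138). What sets this difference was not tested.

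**Figure D2:**
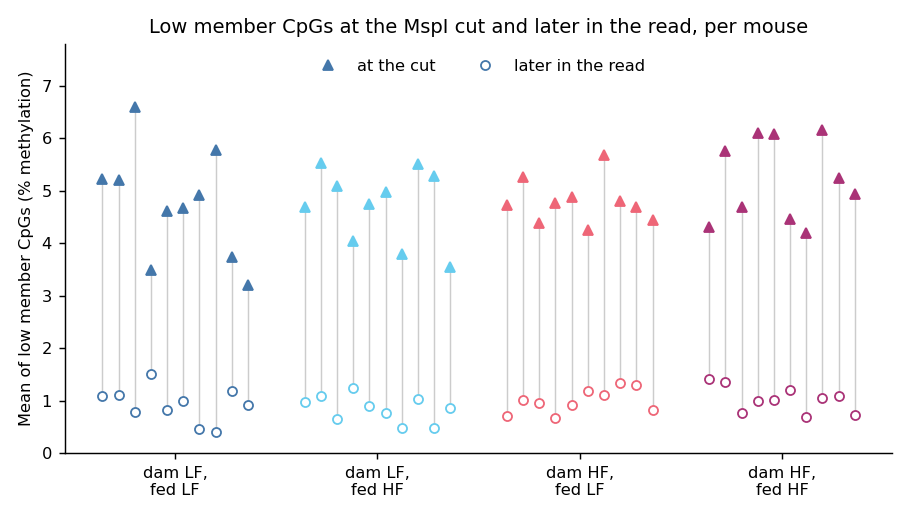
Mean methylation (%) in each mouse over the 34 low member CpGs at the MspI cut (triangles) and the 80 later in the read (open circles), by group, with a grey line joining the values of a mouse. The triangles lie above the circles in each of the 40 mice, and the 4 groups overlap.

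The effect of maternal diet in mice fed LF was tested by comparing HF/LF with LF/LF mice. Of the 127 member CpGs with a p-value, 4 had an unadjusted p below 0.05 by the two-sided test (3.15%, against 3.99% of all tested CpGs). None passed an FDR of 5% over the whole table, where 0 of 240742 passed. Of the 4, 3 lay in Pik3r1 and 1 in Irs2, and all 4 lay at the cut, where 46 of the 127 CpGs and 41.05% of all CpGs tested in this comparison were. In the other comparisons 1 of 3 such CpGs (maternal diet under HF feeding), 0 of 1 (post-weaning diet with LF dams) and 2 of 4 (with HF dams) lay at the cut.

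The smallest adjusted value belonged to the Pik3r1 intronic CpG at 102537758, 414 bp from the start, with an FDR of 0.0902, and it ranked 1 of the 240742 CpGs in this comparison. Its methylation in the 10 LF/LF mice had a lowest value of 5.66%, a median of 7.69% and a highest of 12%. In HF/LF mice these values were 0, 1.19% and 5.13%, with 5 of the 10 mice at 0. The groups did not overlap, and the difference was -6.84 percentage points (95% interval -8.70 to -4.99), with a p of 1.08e-05 by the exact permutation test, which is the smallest it can give. The CpG was picked for its p-value in these same mice, so the separation, interval and permutation p are not separate evidence. The share of all tested CpGs whose groups did not overlap is not given here.

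The reads behind this difference were few. Over the 10 mice, 23 of 284 reads were methylated in LF/LF and 6 of 355 in HF/LF mice. The SD between mice was 2.14 percentage points in the first group, below the 5.70 that sampling of the reads alone gives at these depths, and 1.79 in the second, where sampling gives 2.12. A quasi-binomial model of the reads with a dispersion of at least 1, added after seeing these values, gave the CpG an FDR of 0.878. Over the CpGs covered in all 40 mice alone the FDR was 0.0122, and without HF/LF replicate 7 it was 0.0264, while with the mean methylation of each mouse as a covariate it was 0.858.

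Among mice fed HF this CpG did not show the same order. HF/HF mice had values of 0 to 23.5% (median 6.82%) and LF/HF mice had 0 to 14.7% (median 5.83%), which overlapped, with a difference of 1.61 percentage points (-4.38 to 7.61) and an FDR of 0.911. The difference between the maternal effects under HF and LF feeding was 8.46 percentage points, with an unadjusted p of 0.00751 and an FDR of 0.868 over the table. HF/HF mice lay 6.15 percentage points above HF/LF mice (1.20 to 11.1), with an FDR of 0.820. These comparisons share groups and are not separate evidence.

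The other CpGs on the same reads stayed near 0. Of these, the CpG at 102537779 had values of 0 in all LF/LF and LF/HF mice and reached 2.38% and 5.88% in the highest HF/LF and HF/HF mouse. The CpG at 102537792 was at 0 in every LF/LF mouse and reached at most 4.76% elsewhere. Within 100 bp, 3 further tested CpGs lay on the facing read, at 102537816, 102537835 and 102537854, and their differences between HF/LF and LF/LF mice were 0.780, 0.588 and -3.13 percentage points. None of the 5 tested neighbours had a p below 0.05 in any of the 4 comparisons. The CpG at 102537854, at the cut of the facing read, had group means of up to 5.28% (LF/LF), with 26.7% in 1 mouse. The 3 CpGs at 102537696, 102537706 and 102537734 had too few mice with 10 reads to be tested, and the mean at 102537696 was 5.90%.

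**Figure D3:**
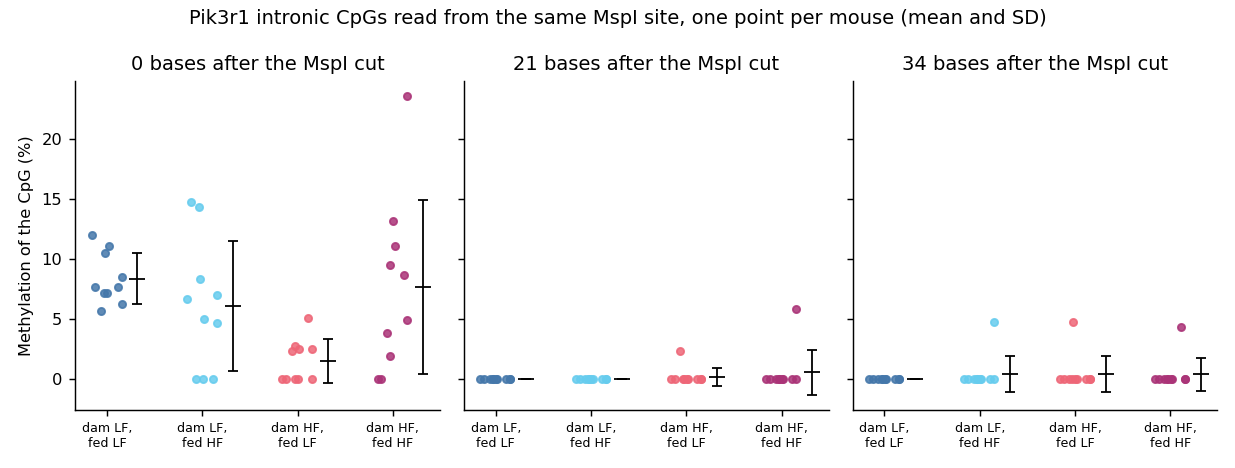
Methylation (%) of 3 Pik3r1 CpGs on the reads that start at 102537758, in each mouse of the 4 groups, with the mean and SD beside the points. At the cut LF/LF mice lie between 5.66 and 12% and HF/LF mice between 0 and 5.13%, and the CpGs 21 and 34 bases later are at 0 in most mice.

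The other CpGs with p below 0.05 between HF/LF and LF/LF mice differed the opposite way. The Irs2 coding CpG at 11006062 had values of 29.4 to 68.8% (median 41.2%) in HF/LF and 12 to 48% (median 32.1%) in LF/LF mice. The groups overlapped, and the difference of 14.6 percentage points (2.95 to 26.3) had an exact permutation p of 0.0165 and an FDR of 0.819. The Pik3r1 CpG at 102538046, in the 5′ untranslated region, had medians of 5.88% and 0%, with a difference of 3.46 percentage points (0.292 to 6.62) and an FDR of 0.819. The Pik3r1 CpG at 102537137 differed by 5.11 percentage points, with the same FDR.

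The effect of maternal diet in mice fed HF was tested by comparing HF/HF with LF/HF mice. Of 120 member CpGs, 3 had a p below 0.05 (2.5%, against 3.72% of all tested CpGs) and none passed an FDR of 5% (smallest 0.822). The Insr CpG at 3279152, in the 5′ untranslated region and at the cut, had values of 2.94 to 15.4% (median 5.88%) in the 7 HF/HF mice with enough reads and of 0 to 10.53% (median 0%) in the 10 LF/HF mice. These overlapped, with a difference of 5.02 percentage points (0.979 to 9.05) and an exact permutation p of 0.0206. The Irs1 coding CpG at 82287033 was at 0 in all 10 HF/HF mice and reached 7.69% in the 9 LF/HF mice with a value, a difference of -2.33 percentage points with an exact permutation p of 0.0650. The Akt1 intronic CpG at 113902105 was fully methylated in all 9 HF/HF mice with a value and lay at 93.3 to 100% in the 10 LF/HF mice, a difference of 1.98 percentage points with an exact permutation p of 0.108.

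The effect of post-weaning diet was tested by comparing LF/HF with LF/LF and HF/HF with HF/LF mice. In the first, 1 of 118 member CpGs had a p below 0.05 (0.848%, against 4.03% of all tested CpGs), the Irs1 CpG at 82287033, where every LF/LF mouse was at 0. In the second it was 4 of 122 (3.28%, against 4.06%), at Irs2 (2 CpGs), Pik3r1 and Akt1. None passed an FDR of 5% in either, with smallest values of 0.808 and 0.820, and 0.00084% and 0.00124% of all tested CpGs did. The Irs2 intronic CpG at 11003622 had values of 20 to 41.7% (median 33.1%) in HF/HF and 13.6 to 35.7% (median 19.2%) in HF/LF mice. The difference of 9.04 percentage points (1.62 to 16.5) had an exact permutation p of 0.0218. The Irs2 CpG at 11008816, upstream of the start, differed by -3.36 percentage points. The Akt1 intronic CpG at 113902129 lay at 85.9 to 100% (median 100%) in HF/HF and at 85.7 to 100% (median 90.1%) in HF/LF mice, with a difference of 5.21 percentage points (0.487 to 9.92).

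The effect of maternal diet differed between the post-weaning diets with p below 0.05 at 3 of 132 member CpGs (2.27%, against 4.18% of all tested CpGs), which lay in Irs1, Irs2 and Pik3r1. None passed an FDR of 5% (smallest 0.868). Over the members, the median size of the difference was 0.610 to 0.854 percentage points in the 4 comparisons, and over all tested CpGs it was 1.12 to 1.21. The 2 sets differ in level. Means below 20% were found at 34 cuts and 80 other places among the 137 members. Over all 262317 tested CpGs they were found at 36541 and 113063. Sizes at CpGs of like level were not compared.

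**Figure D4:**
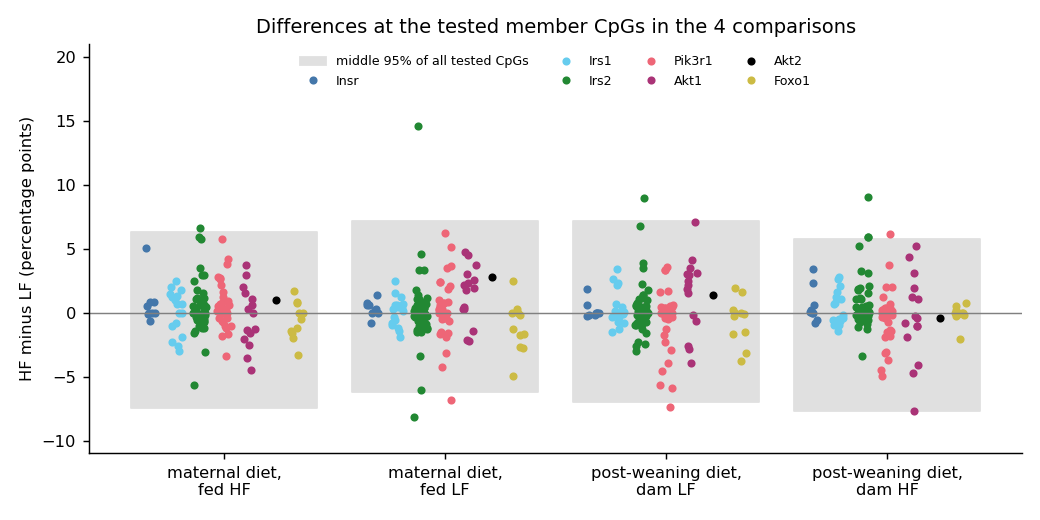
Difference of group means (HF minus LF, percentage points) at each tested member CpG in the 4 comparisons, coloured by gene, with the grey band holding the middle 95% of all tested CpGs. Outside the band lie 1 Irs2 CpG (6.64 percentage points) for maternal diet under HF feeding and 2 Irs2 CpGs (14.6 and -8.13) and 1 Pik3r1 CpG (-6.84) under LF feeding, and for post-weaning diet 1 Irs2 CpG (8.97) and 1 Pik3r1 CpG (-7.34) with LF dams and 3 Irs2 CpGs (5.92, 5.95 and 9.04), 1 Pik3r1 CpG (6.15) and 1 Akt1 CpG (-7.695) with HF dams.

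Averaged over the CpGs within 5 kb of a start, each gene gave 1 value per mouse. The 6 members with at least 5 tested CpGs were tested among 12563 such genes, and Akt2, with its single CpG, is given without that adjustment. In this mean each CpG is centred on its average over mice before averaging, so that a mouse that lacks CpGs can fall slightly below 0. No member passed an FDR of 5% in any comparison, and 0 of all genes did. Members with p below 0.05 numbered 1 of 6 for maternal diet under HF feeding (4.74% of all genes) and 1 of 6 under LF feeding (5.4%). For post-weaning diet they numbered 0 of 6 with LF dams (5.24%) and 0 of 6 with HF dams (5.89%).

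The first was Insr. Its window mean was 1.01 to 2.61% (median 1.80%) in 9 HF/HF mice, with no value at any tested Insr CpG in the remaining mouse, and -0.507 to 2.13% (median 0.908%) in 10 LF/HF mice. The means were 1.67% ± 0.534 (SD) and 0.807% ± 0.865, with a difference of 0.860 percentage points and an FDR of 0.966. Without the CpGs at the cut, an average added after seeing the data, the difference was 0.0634 percentage points, and the member with p below 0.05 was then Pik3r1, with a difference of 0.501 and an FDR of 0.952.

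The second was Foxo1, the transcription factor that AKT phosphorylates. Its window mean was 1.37 to 2.90% (median 1.88%) in HF/LF and 0.913 to 4.93% (median 3.07%) in LF/LF mice. The groups overlapped, with a difference of -1.13 percentage points (-2.003 to -0.257) and an FDR of 0.859. Without the CpGs at the cut it was -0.936 with an FDR of 0.935.

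The other windows had no p below 0.05. Irs1 had group means of 1.87 to 2.44%, Irs2 of 6.73 to 7.8% and Pik3r1 of 2.02 to 2.59%. Akt1 had group means of 72.6 to 74.4%, with SDs of 1.41 to 2.84. For Akt2 the CpG values were 7.14 to 45.0% over the mice, with group means of 18.5% ± 6.94 in LF/LF, 19.9% ± 11.4 in LF/HF, 21.3% ± 8.80 in HF/LF and 20.9% ± 8.32 in HF/HF mice. The intervals of its differences reached from -8.46 to 10.4 percentage points, so smaller differences were not detectable there. Over the 40 mice, the gene windows most like that of Pik3r1 were those of Mmp15 (Pearson's r 0.597) and Tgif1 (0.566) among the genes compared. These are the highest of many and are given as a description.

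**Figure D5:**
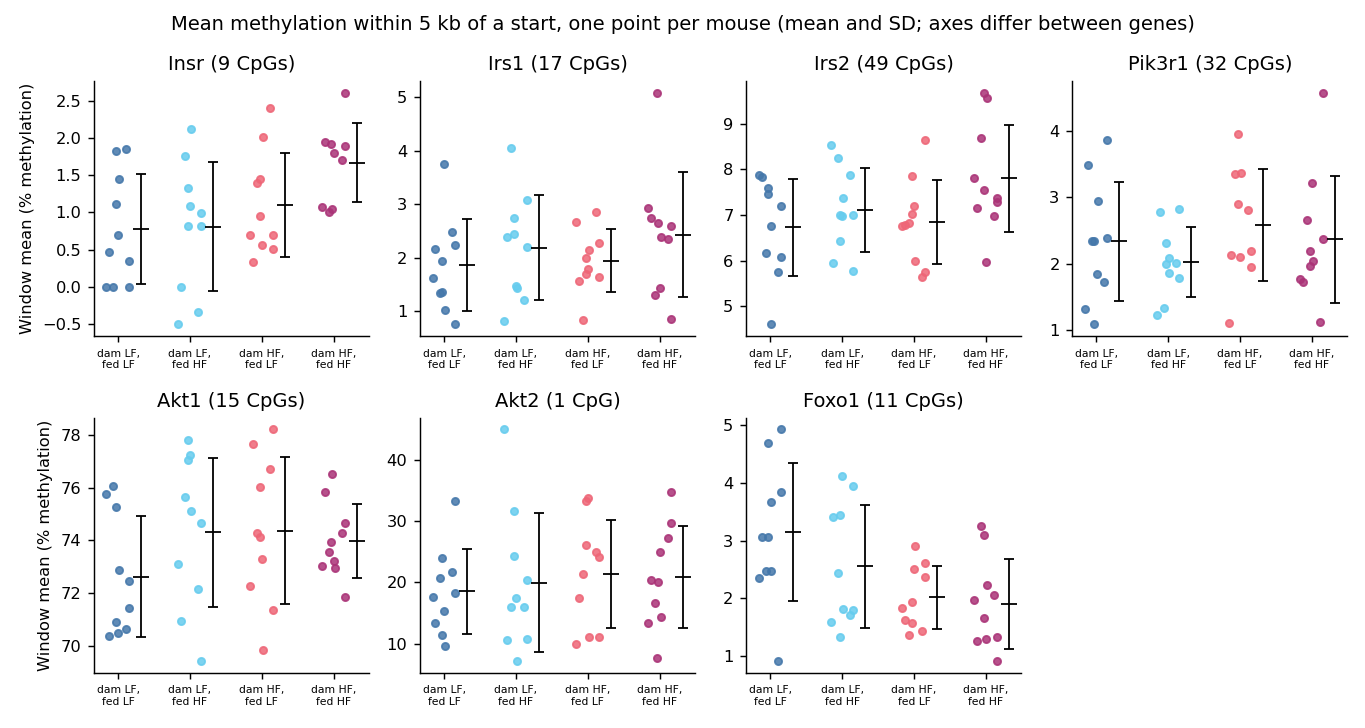
Mean methylation (%) of the tested CpGs within 5 kb of a start in each mouse, for the 7 genes and 4 groups, with the mean and SD beside the points and a vertical axis of its own for each gene. The groups overlap at each gene, including Insr between HF/HF and LF/HF mice and Foxo1 between HF/LF and LF/LF mice.

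Other genes of the pathway were looked at in the same way. Of 49 further genes from the receptor to its hepatic outputs, 36 had at least 5 tested CpGs, with a median level of 2.78% (0.781 to 84.4%) and 26 of them below 10%. None passed an FDR of 5%. Under LF feeding, maternal diet gave a p below 0.05 at 2 of the 36, a share near the 5.4% of all genes: Rps6kb1, which encodes the S6 kinase downstream of mTOR and was higher by 0.875 percentage points (FDR 0.767), and Pik3r2, which encodes another regulatory subunit and was lower, at 47.0% against 48.4% (FDR 0.867). For post-weaning diet 4 of the 36 had a p below 0.05 with LF dams (5.24% of all genes), 3 of them higher in LF/HF mice, among them Rps6kb1 (by 0.730 percentage points) and Foxo6 (by 0.986), and 1 lower. With HF dams it was 2 (5.89% of all genes), both lower in HF/HF mice: Rps6kb1, which was higher with LF dams, by -0.670 percentage points and Ptpn1, which encodes a phosphatase of the insulin receptor, by -2.67 (FDR 0.705). The Rps6kb1 window lay near 0, with group means of 0.359% (LF/LF) to 1.23% (HF/LF). Its comparisons share groups and are not separate evidence.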

How the data were processed

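DNA methylation was measured by reduced representation bisulfite sequencing in the livers of 40 mice, grouped by the labels. The authors cut DNA with MspI, kept molecules of 150 to 600 bp, aligned single-end reads of 50 bases with Bismark to mm9, and deposited for each CpG cytosine counts of methylated and of all reads (the latter missing below 10) and the fraction of methylated reads. The deposited fractions equalled the ratios of the counts. All 399856 cytosines on placed sequences lay at a CpG of the NCBIM37 reference, and gene models were from GENCODE of that build. Deposited array and other sequencing data were not used here.

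Percent methylation was compared per CpG by a two-sided Student's test, which the study's methods name beside a rank test. It was run over the 262317 CpGs with at least 10 reads in at least 36 mice, fewer than the 400298 listed, so the CpGs tested differ from the study's. Its p-values were adjusted over the table by Benjamini-Hochberg. A linear model gave the interaction. Gene windows were tested likewise over 12563 genes with at least 5 tested CpGs. Exact permutation tests enumerated all splits in place of 100000 resamples. Analyses used Python 3.11.15, numpy 2.4.6, scipy 1.17.1 and pandas 2.3.3, and were tested on simulated data. There the planned quasi-binomial model with a freely estimated dispersion called too many CpGs that had not been changed, so its calls are given only as an alternative and a version with a dispersion of at least 1 was added.

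The members, gene lists and tests were chosen with earlier results of these data known. CpGs were named by rule: in each comparison the 3 member CpGs with the smallest p, for each gene the CpG with the smallest p and that with the largest SD within groups, and the CpGs within 100 bp of the top CpG. Permutation p-values and intervals at CpGs named for a small p come from the same mice that chose them. The CpGs at 102537137 and 11008816, with p below 0.05, and the low Akt1 and high Pik3r1 CpGs were named after their values were seen. Intervals cover the spread between mice, and a value on 10 reads moves in steps of 10%. Alternatives were other read minimums, CpGs covered in all mice, all listed CpGs, summed strands, covariates, shorter windows, other tests and leaving out each mouse. Some results for genes outside the members are not reported here.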

Additional observations from a re-analysis of the deposited data

Results flagged for a closer look

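Single mice stood apart from their group in 4 of the 59 groups of values looked at, by the ratio of the gap to the nearest mouse over the range of the group, which chance exceeds in about 1 in 20 groups. At the Irs1 coding CpG 82287054, an LF/LF mouse had 20% on 10 reads, against 8% in the next. At the Irs2 coding CpG 11006006, the lowest LF/LF mouse had 30% on 10 reads, against 53.1% in the next lowest. At the Pik3r1 intronic CpG 102528189, an LF/HF mouse had 64.3% on 14 reads, against 31.8% in the next. The Irs1 window mean was 5.08% in an HF/HF mouse, against 2.93% in the next. That mouse had a shallow library, with 67 member CpGs missing. These values can move widely through the sampling of reads.

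The effect of maternal diet differed between the post-weaning diets, before adjustment over the table, at 2 of the named CpGs. Over all tested CpGs, 4.18% had an unadjusted p below 0.05 in this linear model. Both CpGs were named for pairwise p-values of the same mice, so their values here are not separate evidence. At the Irs1 CpG 82287033 the difference fed HF minus that fed LF was -2.92 percentage points (p 0.0134 from the linear model, FDR 0.868). At the Pik3r1 CpG 102537758 it was 8.46 (p 0.00751, FDR 0.868).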

How the results depend on the processing

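No member CpG passed an FDR of 5% in any comparison or in the interaction under the alternatives, except the Pik3r1 CpG at 102537758 in mice fed LF. Over the 40-mouse coverage set it passed, so that 1 member CpG did, with the same difference of -6.84 percentage points and an FDR of 0.0122, where fewer CpGs were tested. Over the other settings its difference was -7.08 to -6.41 with an FDR of up to 0.878, and it also passed on leaving out HF/LF replicate 7 (-7.24, FDR 0.0264), where leaving out each mouse in turn gave -7.24 to -6.44. The number of members passing was thus 0 to 1 without each mouse.

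Counts of member CpGs with p below 0.05 moved more, the cause not being tested except where fewer CpGs were tested. They are given for maternal diet fed HF, maternal diet fed LF, post-weaning diet with LF dams and post-weaning diet with HF dams (3, 4, 1 and 4 in the report). A free quasi-binomial model, which called too many in simulated data, gave 20, 18, 14 and 13. With a dispersion of at least 1 it gave 8, 4, 4 and 7. With 20 reads, where 1 member CpG remained, all 4 and the interaction gave 0, and with 15 reads the last 3 gave 1, 2 and 2. CpGs covered in all 40 mice gave 0, 1, 0 and 2, and 1 for the interaction. Every listed CpG gave 7 and 3 for the middle comparisons, and summed strands gave 2 and 2 for the last ones. The mean methylation covariate gave 1 fed HF and 2 with HF dams, the coverage covariate 2 fed LF, the 2 kb window 2 with HF dams, and Welch's test 0 with LF dams. Leaving out each mouse gave 2 to 5, 2 to 6, 1 to 3 and 2 to 5. The mice that moved these counts by over 1.5 times were HF/HF 7 fed HF (5), HF/LF 8 and LF/LF 1, 7 and 10 fed LF (2 each), LF/LF 2 with LF dams (3), LF/HF 5, 7 and 10 and LF/LF 3, 5, 6, 7 and 8 with LF dams (2 each) and HF/HF 3 with HF dams (2).

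Of the member gene windows, 0 had p below 0.05 fed HF with pooled reads, with CpGs covered in all mice or with 15 reads, and 0 fed LF with CpGs covered in all mice, within 2 kb, with 15 reads or without the cut. With HF dams the count was 1 with pooled reads and 0 to 1 without each mouse (1 without HF/HF 1, 5, 6, 7 or 10 or HF/LF 2, 6, 7 or 9). The Irs2 window with HF dams reversed within 2 kb, to -0.0397 percentage points. No paired analysis was possible because the labels give no replicate or litter numbers shared between groups. Depth limits all values: at 10 reads a step is 10%.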
